A study of Mus musculus with 6 samples.

Results

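Autophagy, mitophagy and mitochondrial dynamics were described through 37 genes, chosen by symbol from a list of the core autophagy machinery, its cargo receptors, the genes of mitophagy and the proteins of mitochondrial fusion and fission. All 37 are among the 46095 gene rows of the count table. RNA sequencing was done on 6 mouse hearts, 3 labelled STAT3cKO, with STAT3 deleted in cardiomyocytes only, and 3 labelled wild type. STAT3cKO replicates carry the numbers 3, 6 and 91 and wild type replicates, titled NC, the numbers 1, 3 and 4. The study asked which pathways tied to cardiac function differ when the cardiomyocytes lack STAT3. No treatment, age, sex or strain is given in the labels, and neither is the promoter that drove the deletion or whether each library came from its own animal, so the p-values below reflect the spread among these libraries, which may be technical. Values are listed in the order of replicates 1, 3 and 4 for wild type and 3, 6 and 91 for STAT3cKO.

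Macroautophagy delivers cytoplasm and organelles to the lysosome. The ULK kinase complex starts it, the phosphatidylinositol 3-kinase complex around beclin 1 marks the growing membrane, and a ubiquitin-like conjugation system attaches ATG8 proteins (the LC3 and GABARAP families) to that membrane. Cargo receptors bind both ATG8 proteins and ubiquitinated cargo. Mitophagy is the form that removes mitochondria, which are abundant in heart muscle, and it works alongside fusion and fission, by which mitochondria join and divide.

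Total counts per heart ran from 15416877 to 18264052. Stat3 stood at 99.7, 85.8 and 97.5 CPM in the wild-type hearts against 52.9, 63.7 and 59.6 CPM in the STAT3cKO hearts, lower in every STAT3cKO heart (log2 fold change -0.68 ± 0.10 SE, edgeR adjusted p = 0.000677; -0.43 ± 0.09 SE, adjusted p = 0.00811 with the length and GC offset described next). In these libraries fold changes followed transcript length. Longer transcripts tended to have lower values in STAT3cKO hearts, with a Spearman's rho of -0.429 over the 13580 tested genes of known length, a description across genes that share libraries. Each result below is therefore given from 2 fits of edgeR's quasi-likelihood test with Benjamini-Hochberg adjustment over all 14484 genes tested. One has no offset, and the other takes off each heart's trend on transcript length and GC content (the length and GC offset), which brought rho to 0.00161. Genes with an adjusted p under 0.05 are said to have risen or fallen. CPM are counts relative to library size after TMM scaling, and a positive log2 fold change means a higher level in STAT3cKO hearts. All 37 members passed the filter on low counts.

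Cell type markers differed between the groups as well (calls are without the offset, then with it). Of all genes tested 13.2% were called higher and 12.6% lower, then 10.9% and 7.91%. Cardiomyocyte markers summed to between 41200 and 47000 CPM in wild-type hearts and between 42400 and 53500 in STAT3cKO hearts, with 2 of 8 higher and 1 lower, then 2 higher and 0 lower. Endothelial markers summed to between 1090 and 1270 CPM in wild type and between 736 and 803 in STAT3cKO (5 of 6 lower, then 4), and smooth muscle and pericyte markers to between 1030 and 1190 and between 657 and 773 (4 of 6 lower, then 2). Macrophage markers ran from 240 to 284 CPM in wild type and from 124 to 188 in STAT3cKO (4 of 6 lower, then 5), fibroblast markers from 1120 to 1660 and from 1550 to 2040 (1 of 6 higher and 1 lower, then 1 higher and 0 lower), and red blood cell transcripts from 90.7 to 159 and from 334 to 685 (4 of 5 higher, then 1). Every marker passed the filter, so none was at 0. The sums follow the most abundant markers and can hide others. Among cardiomyocyte markers, Nppa stood at 49.6, 123 and 117 CPM in wild-type hearts and at 129, 62.3 and 721 in STAT3cKO hearts, without passing. Among smooth muscle markers, Acta2 averaged 124 CPM in wild type and 29.2 in STAT3cKO. In whole-heart RNA, fewer cells of a type and less RNA per cell cannot be told apart, and the part of these markers in the results on the 37 genes was not tested.

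Levels were compared between genes per transcript length, as TPM (counts divided by transcript length and scaled to the same total in each heart) computed from the longest annotated transcript in the 3 wild-type hearts. Map1lc3a, which encodes the ATG8 protein LC3A, stood highest at 964 ± 122 TPM (SD, n = 3). Pink1, the kinase that builds up on damaged mitochondria, followed at 843 ± 81.4 TPM (SD, n = 3), and its 3 hearts overlapped those of Map1lc3a. Below a gap came the cargo receptor Sqstm1 (p62) at 360.0 ± 23.4 TPM (SD, n = 3) and the mitofusins Mfn2 and Mfn1, which tether and fuse outer mitochondrial membranes, at 306 ± 23.1 TPM (SD, n = 3) and 268 ± 15.8 TPM (SD, n = 3). The lowest heart of Sqstm1 and the highest of Mfn2, at 333 and 331 TPM, lay close together. Foxo1 at 11.6 ± 0.735 TPM (SD, n = 3) and Gabarap at 8.29 ± 1.18 TPM (SD, n = 3) were the lowest of the 37. Gabarap, an ATG8 gene, held only 31 to 74 raw counts per heart. How reads that map to several places were counted is not given in the sources used here, so levels of genes with near-identical copies elsewhere are uncertain.

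**Figure D1:**
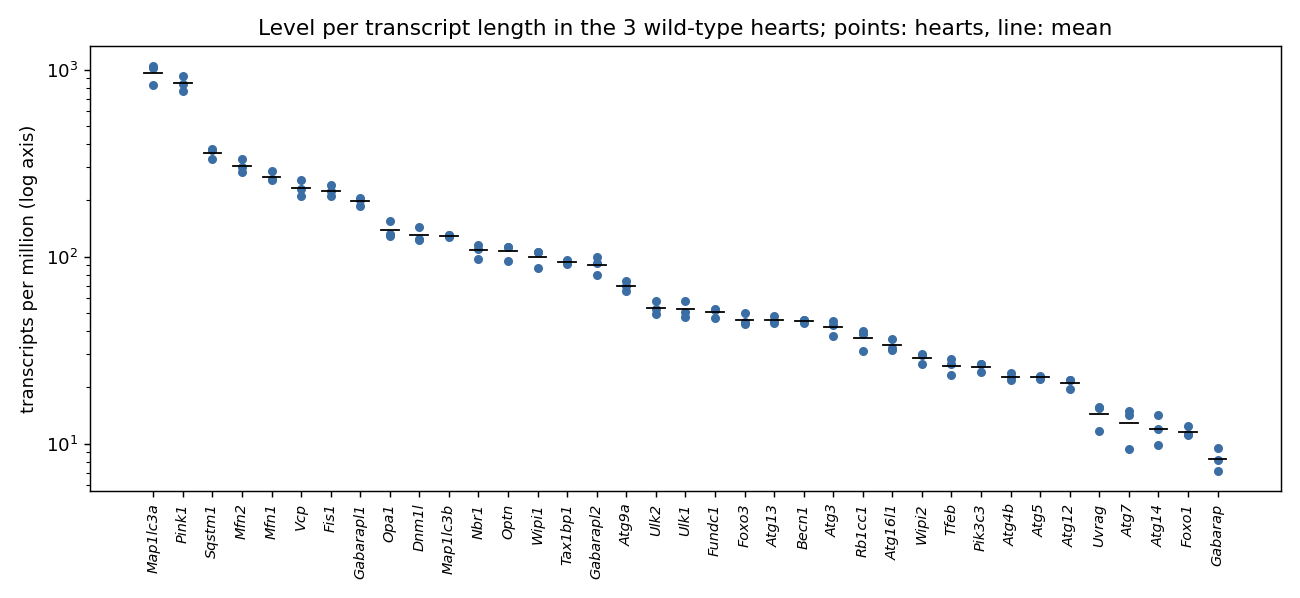
Level per transcript length of each of the 37 genes, in TPM on a log axis, in the 3 wild-type hearts (points) with their mean (line). Map1lc3a and Pink1 lie above the rest, at 964 and 843 TPM on average, and Gabarap is lowest at 8.29.

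Members were called in both directions, with modest fold changes, and the share called in either direction was near that of all genes. Without the offset 8 of 37 members rose (21.6%, against 13.2% of all genes tested) and 3 fell (8.11%, against 12.6%), and 26 did not pass. The risers were Sqstm1, Optn, Tax1bp1, Fundc1, Fis1, Atg5, Atg12 and Gabarapl1, and the 3 that fell were Atg9a, Mfn2 and Opa1. In either direction 29.7% of members passed, against 25.8% of all genes tested. With the length and GC offset 7 rose (18.9%, against 10.9%) and 1 fell (2.7%, against 7.91%). In either direction 21.6% of members then passed, against 18.8% of all genes. Atg5 and Gabarapl1 no longer passed, Map1lc3b newly rose, and Mfn2 and Opa1 no longer passed. In both fits 6 members rose (8.28% of all genes tested did) and 1 fell (6.56%). The median log2 fold change of the members was 0.01 without the offset and 0.08 with it, beside 0.00 and 0.02 over all genes tested. CPM of the 2 groups did not overlap for 10 members higher and 10 lower in STAT3cKO, where 21.5% of all genes tested were higher in this way and 21.5% lower, 43% in all. With the offset taken off, 13 were higher and 4 lower, against 21% and 17.1%, or 38.1% in all. No test of the set as a whole was made.

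**Figure D2:**
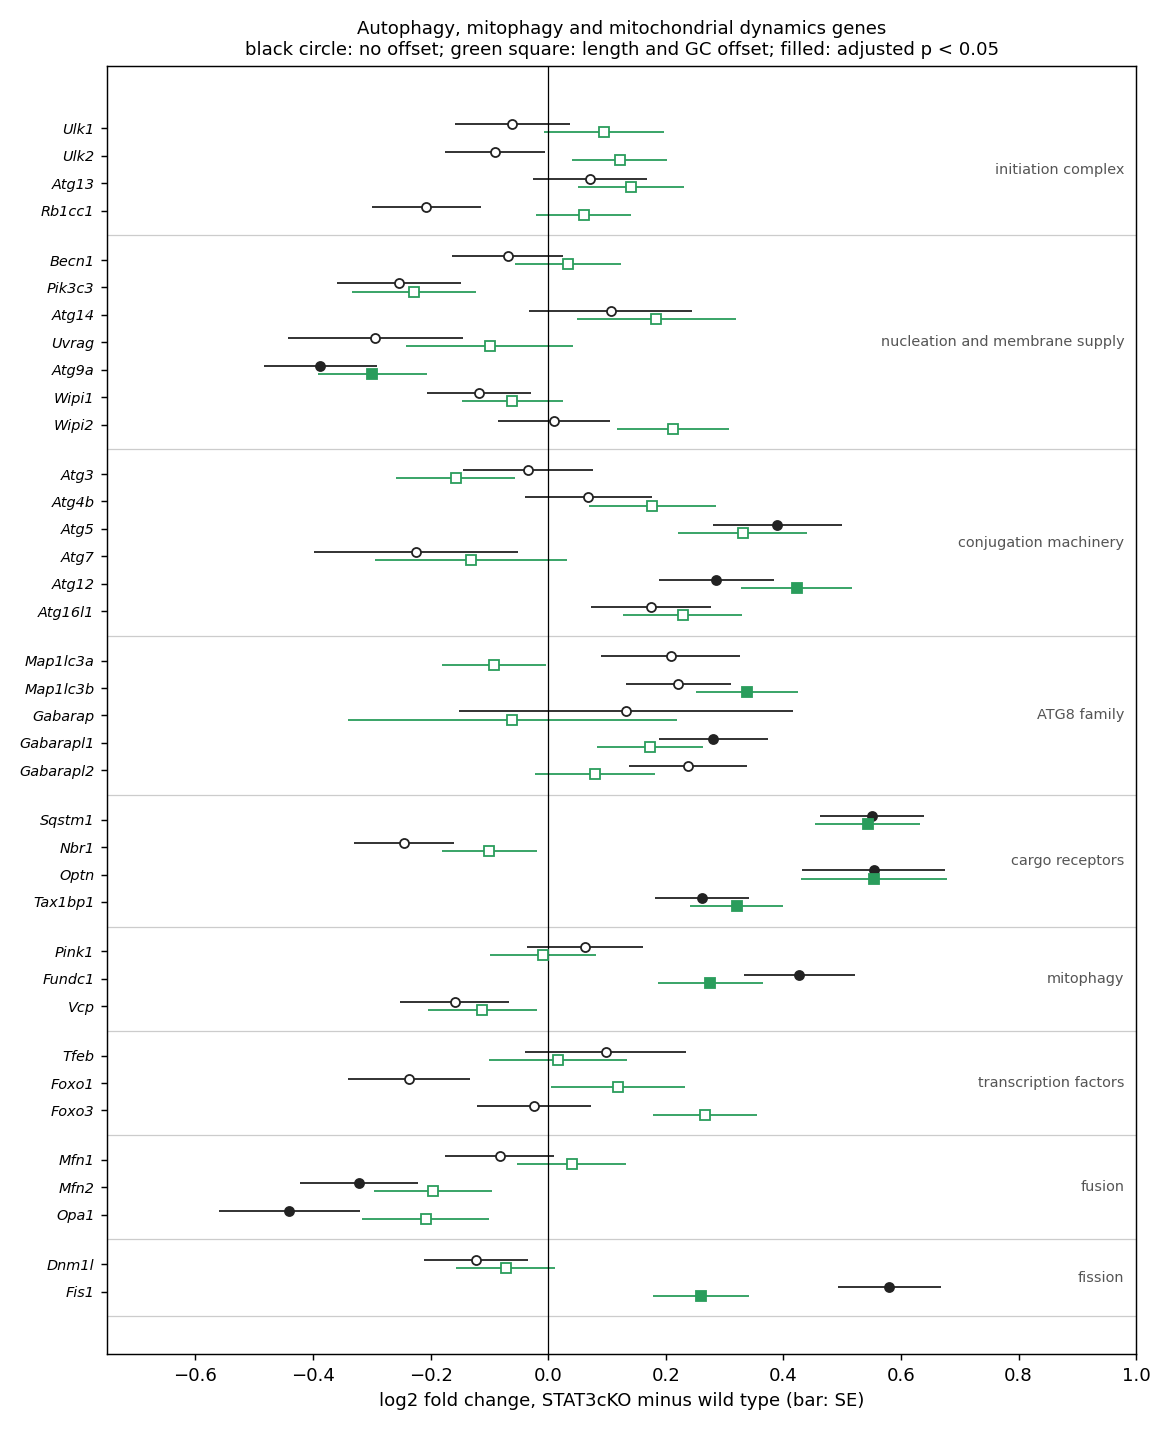
Log2 fold change of each gene, STAT3cKO minus wild type, with its standard error, grouped by role. Black circles are from the fit without offset, green squares from the fit with the length and GC offset, and filled symbols have an adjusted p under 0.05. Sqstm1, Optn, Tax1bp1, Fundc1, Fis1 and Atg12 are filled and right of 0 in both fits, and Atg9a is filled and left of 0 in both.

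Of 4 cargo receptors, 3 rose in both fits, where 8.28% of all genes tested did, and Nbr1 lay on the other side. Counts by role here and below rest on few genes and are read against the shares of all genes tested. Sqstm1 encodes p62, which gathers ubiquitinated proteins and mitochondria for the autophagosome (GRCm38 chromosome 11, 50200152 to 50210820, minus strand). It stood at 254, 266 and 273 CPM in the wild-type hearts against 398, 387 and 376 CPM in the STAT3cKO hearts. Every STAT3cKO heart was higher than every wild-type heart, by more than 100 CPM. Its log2 fold change was 0.55 ± 0.09 SE (adjusted p = 0.00114), and with the offset it was 0.54 ± 0.09 SE, adjusted p = 0.00174. The call held in each of the 11 alternative settings and each of the 6 fits that left out a heart, in which adjusted p ran from 0.0016 to 0.00817.

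Optn encodes optineurin, a receptor that PINK1 and parkin signalling brings to mitochondria (chromosome 2, 5020521 to 5064399, minus strand). It stood at 70.6, 78.7 and 80.0 CPM in the wild-type hearts against 117, 129 and 90.6 CPM in the STAT3cKO hearts. STAT3cKO replicate 91 was the lowest of its group but still above all wild-type hearts. This was a log2 fold change of 0.55 ± 0.12 SE (adjusted p = 0.00662), and 0.55 ± 0.12 SE, adjusted p = 0.0103 with the offset. Its offset call was lost on leaving out replicate 1 of wild type (adjusted p = 0.0539).

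Tax1bp1, a further ubiquitin-binding receptor, stood at 111, 108 and 111 CPM in the wild-type hearts against 129, 133 and 133 CPM in the STAT3cKO hearts, and the groups did not overlap. In the fit, log2 fold change was 0.26 ± 0.08 SE (adjusted p = 0.0306), and 0.32 ± 0.08 SE, adjusted p = 0.0143 with the offset. This smaller difference did not pass on leaving out replicate 1, 3 or 4 of wild type or replicate 3 or 91 of STAT3cKO (adjusted p = 0.0694, 0.121, 0.0712, 0.0681 and 0.064), nor with library size alone or no low-count filter. The offset call was lost on leaving out replicate 3 or 4 of wild type (adjusted p = 0.0682 and 0.0552), and with the median transcript length (adjusted p = 0.093).

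Nbr1, which shares its domain plan and cargo with p62, stood at 133, 142 and 150.1 CPM in the wild-type hearts against 119, 119 and 121 CPM in the STAT3cKO hearts. All STAT3cKO hearts lay below all wild-type hearts, but it did not pass in the fit without offset (log2 fold change -0.25 ± 0.09 SE, edgeR adjusted p = 0.0506) or with it (-0.10 ± 0.08 SE, adjusted p = 0.418). It sat close to the threshold and fell in 4 of the 11 alternative settings without the offset: library size alone, no low-count filter, the stricter filter and the non-robust fit (adjusted p = 0.0123, 0.0478, 0.0447 and 0.049). It also passed on leaving out replicate 1 of wild type (adjusted p = 0.0471), and in the offset fit with the median transcript length (adjusted p = 0.0155).

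**Figure D3:**
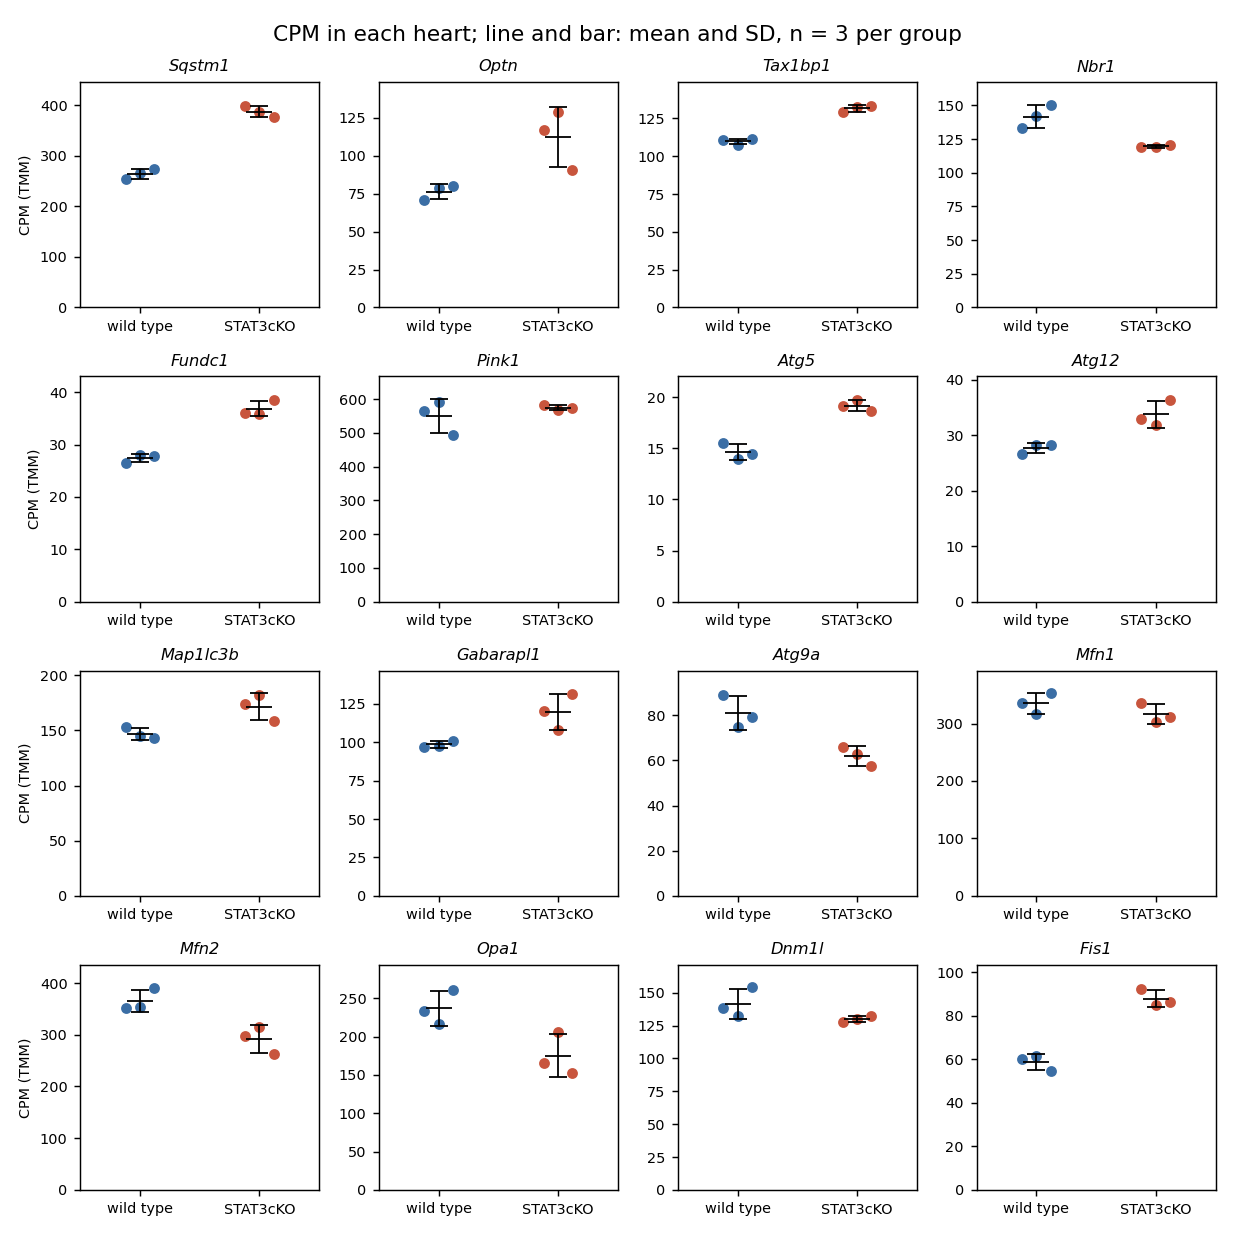
CPM of 16 genes in each heart, with the group mean and SD (n = 3 per group) and axes starting at 0. Sqstm1, Fundc1, Atg5 and Fis1 show groups well apart with STAT3cKO higher, Atg9a, Mfn2 and Opa1 groups apart with STAT3cKO lower, and Pink1 and Mfn1 groups that overlap.

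The promoters of Sqstm1 and Optn, the members with the largest differences that held with the offset, are shown with those of Nbr1 and Atg3, the members whose windows held a match to a STAT or a CLEAR motif. Each is the run of 250 bases before an annotated start, 5′ to 3′ on the gene's strand, from RefSeq on GRCm38.p6, and capitals mark the matches. The windows lie at chr11:50210821-50211070 (minus strand) for Sqstm1, chr2:5064118-5064367 (minus) for Optn, chr11:101552404-101552653 (plus) for the second annotated start of Nbr1 and chr16:45158579-45158828 (plus) for Atg3.
Sqstm1: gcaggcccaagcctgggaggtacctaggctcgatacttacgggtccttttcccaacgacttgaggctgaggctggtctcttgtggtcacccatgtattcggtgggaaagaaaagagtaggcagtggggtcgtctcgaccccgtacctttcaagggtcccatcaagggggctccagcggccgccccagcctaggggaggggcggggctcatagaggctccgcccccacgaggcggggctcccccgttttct
Optn: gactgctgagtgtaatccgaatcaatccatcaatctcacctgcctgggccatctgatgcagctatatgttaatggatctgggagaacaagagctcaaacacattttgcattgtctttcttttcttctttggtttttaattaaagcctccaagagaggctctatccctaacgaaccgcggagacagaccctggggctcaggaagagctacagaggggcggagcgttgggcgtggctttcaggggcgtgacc
Nbr1: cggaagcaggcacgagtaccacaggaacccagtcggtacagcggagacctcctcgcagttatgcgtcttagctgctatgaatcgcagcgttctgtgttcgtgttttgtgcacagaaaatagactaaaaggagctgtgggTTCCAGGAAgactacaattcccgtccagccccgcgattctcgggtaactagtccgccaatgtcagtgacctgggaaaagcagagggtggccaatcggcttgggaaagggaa
Atg3: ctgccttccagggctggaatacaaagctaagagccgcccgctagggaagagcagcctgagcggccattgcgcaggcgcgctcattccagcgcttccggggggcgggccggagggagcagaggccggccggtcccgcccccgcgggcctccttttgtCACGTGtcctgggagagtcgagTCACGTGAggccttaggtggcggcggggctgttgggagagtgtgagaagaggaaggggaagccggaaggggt

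Matches were searched on both strands from 250 bases before to 50 after the start, in 39 windows of 31 members. Map1lc3a, Becn1, Atg12, Atg16l1, Rb1cc1 and Pik3c3 had no window. The median GC content before the start was 58.8% in member windows and 52.4% in all windows. TTCCNGGAA, a STAT motif, was in 1 window, that of Nbr1 at 111 bases before the start, and in 1.15% of all 32851 windows of that length. CACGTG, the E-box bound by TFEB and related factors, was in windows of 4 members (Atg14, Atg3, Atg5 and Atg7) and in 7.15% of all windows. TCACGTGA, the inner letters of the CLEAR element of lysosomal and autophagy genes, overlaps CACGTG and was in the Atg3 window alone and in 0.974% of all windows. TGTTTAC, a FOXO motif, was in 0 member windows and in 3.65% of all windows. Matches are a description of the letters, and a link between matches and calls was not tested. Of the 4 genes with an E-box match only Atg5 passed in the fit without offset and none passed with it, and neither Nbr1 nor Atg3 passed in either.

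Mitophagy genes showed 1 of 3 rising in both fits, where 8.28% of all genes tested did. Fundc1, a receptor in the outer mitochondrial membrane that acts in hypoxia (chromosome X, 17519967 to 17572329), stood at 26.5, 28.0 and 27.8 CPM in the wild-type hearts against 36.1, 35.9 and 38.5 CPM in the STAT3cKO hearts. The groups were well apart, with the lowest STAT3cKO heart above the highest wild-type heart. The log2 fold change was 0.43 ± 0.09 SE (adjusted p = 0.00626), and 0.28 ± 0.09 SE, adjusted p = 0.0478 with the offset. Without the offset it passed in each alternative and each fit that left out a heart. The offset call was close to the threshold and was lost on leaving out replicate 1, 3 or 4 of wild type or replicate 3 or 91 of STAT3cKO (adjusted p = 0.134, 0.121, 0.12, 0.123 and 0.0784), and with library size alone, the stricter filter or the median transcript length.

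Pink1 stood at 564, 593 and 494 CPM in the wild-type hearts against 581, 568 and 575 CPM in the STAT3cKO hearts, so the groups overlapped. The difference was small in both fits (log2 fold change 0.06 ± 0.10 SE, edgeR adjusted p = 0.671; -0.01 ± 0.09 SE, adjusted p = 0.957 with the offset). Vcp, an ATPase that extracts ubiquitinated proteins from membranes, stood at 199, 204 and 231 CPM in the wild-type hearts against 195, 181 and 192 CPM in the STAT3cKO hearts. Its STAT3cKO hearts lay below its wild-type hearts without passing (log2 fold change -0.16 ± 0.09 SE, edgeR adjusted p = 0.226; -0.11 ± 0.09 SE, adjusted p = 0.429 with the offset).

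In the ATG8 family, whose proteins coat the autophagosome and dock cargo receptors, all 5 log2 fold changes were above 0 without the offset. So were 7230 of all 14484 genes tested. Of the 5, Gabarapl1 alone passed. It stood at 97.0, 97.9 and 101 CPM in the wild-type hearts against 120.2, 108 and 132 CPM in the STAT3cKO hearts, with STAT3cKO replicate 6 lowest in its group and nearest to wild type. Its log2 fold change was 0.28 ± 0.09 SE (adjusted p = 0.0411), and 0.17 ± 0.09 SE, adjusted p = 0.201 with the offset, where it did not pass. Its rise without the offset did not hold with library size alone, with no low-count filter or on leaving out replicate 1, 3 or 4 of wild type or replicate 3 or 91 of STAT3cKO (adjusted p = 0.107, 0.123, 0.081, 0.0999 and 0.133).

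Map1lc3b, which encodes LC3B, the ATG8 protein most used as a marker of autophagosomes, behaved the other way between the fits. It stood at 153, 145 and 143 CPM in the wild-type hearts against 174, 182 and 158 CPM in the STAT3cKO hearts, and all STAT3cKO hearts were above all wild-type hearts. It did not pass without the offset (log2 fold change 0.22 ± 0.09 SE, edgeR adjusted p = 0.0876) and rose with it (0.34 ± 0.09 SE, adjusted p = 0.0172). The longest transcript used for it has 4138 nt, against 1112 for Map1lc3a and 1820 for Gabarapl1. The offset call was lost on leaving out replicate 3 or 4 of wild type or replicate 3 of STAT3cKO (adjusted p = 0.0707, 0.0594 and 0.0598).

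The other ATG8 genes did not pass in either fit. Group means are given as mean ± SD of 3 hearts. Map1lc3a averaged 295 ± 42.0 CPM in wild-type hearts and 341 ± 33.1 CPM in STAT3cKO hearts (log2 fold change 0.21 ± 0.12 SE, edgeR adjusted p = 0.214; -0.09 ± 0.09 SE, adjusted p = 0.501 with the offset), so its sign differed between the fits. Gabarapl2 averaged 41.6 ± 3.48 CPM in wild-type hearts and 49.1 ± 3.64 CPM in STAT3cKO hearts (log2 fold change 0.24 ± 0.10 SE, edgeR adjusted p = 0.0982; 0.08 ± 0.10 SE, adjusted p = 0.628 with the offset). Gabarap, with few counts, averaged 3.08 ± 0.417 CPM in wild-type hearts and 3.36 ± 1.17 CPM in STAT3cKO hearts (log2 fold change 0.13 ± 0.28 SE, edgeR adjusted p = 0.762; -0.06 ± 0.28 SE, adjusted p = 0.906 with the offset).

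The makeup of the family was computed within each heart as shares of its summed TPM. Map1lc3a took 65.6 to 72.0% of the family's TPM in wild type and 67.3 to 70.7% in STAT3cKO, Gabarapl1 12.9 to 16.3% and 13.8 to 16.4%, Map1lc3b 8.91 to 10.1% and 8.70 to 10.6%, Gabarapl2 5.50 to 7.34% and 6.13 to 7.53%, and Gabarap 0.564 to 0.650% and 0.357 to 0.681%. The ranges of the groups overlapped for each. These shares keep the length trend, which differed between the groups, and were not computed with it taken off. With the offset the log2 fold changes were 0.34 for Map1lc3b, 0.17 for Gabarapl1, 0.08 for Gabarapl2, -0.06 for Gabarap and -0.09 for Map1lc3a. Overlap of these shares therefore does not show that the makeup was alike. Shares depend on the transcript length taken: with the median length over a gene's transcripts, chosen after the data were seen, Map1lc3a took 54.1 to 61.5% in wild type and 56.2 to 59.9% in STAT3cKO, and Gabarapl1 20.7 to 25.2% and 21.9 to 25.6%.

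The conjugation machinery attaches ATG8 proteins to lipid. Of its 6 genes, 2 rose without the offset (13.2% of all genes tested did) and 1 with it (10.9%). Atg12 encodes the ubiquitin-like protein joined to ATG5 (chromosome 18, 46732417 to 46741724). It stood at 26.6, 28.2 and 28.3 CPM in the wild-type hearts against 33.0, 31.9 and 36.4 CPM in the STAT3cKO hearts. Every STAT3cKO heart exceeded every wild-type heart. This was a log2 fold change of 0.29 ± 0.10 SE (adjusted p = 0.0491), and 0.42 ± 0.09 SE, adjusted p = 0.00902 with the offset. Its call without the offset sat at the threshold and was lost on leaving out replicate 1, 3 or 4 of wild type or replicate 3 or 91 of STAT3cKO (adjusted p = 0.137, 0.111, 0.0992, 0.0925 and 0.149), and with DESeq2, the non-robust fit, library size alone or no low-count filter, while the offset call held in each fit that left out a heart (adjusted p of at most 0.0417). It overlaps Ap3s1 on the other strand.

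Atg5, its partner, stood at 15.5, 14 and 14.4 CPM in the wild-type hearts against 19.2, 19.7 and 18.6 CPM in the STAT3cKO hearts, with no overlap between groups. In the fit, log2 fold change was 0.39 ± 0.11 SE (adjusted p = 0.021). With the offset it stopped just short of the threshold (0.33 ± 0.11 SE, adjusted p = 0.053). Its rise without the offset did not hold with library size alone or on leaving out replicate 3 or 4 of wild type or replicate 3 of STAT3cKO (adjusted p = 0.0858, 0.0657 and 0.0572). With the median transcript length in the offset fit it passed (adjusted p = 0.0212). The remaining 4 did not pass in either fit as run with the longest transcript. Atg16l1, which completes the complex of ATG12 and ATG5, averaged 34.6 ± 2.53 CPM in wild-type hearts and 39.1 ± 2.89 CPM in STAT3cKO hearts (log2 fold change 0.18 ± 0.10 SE, edgeR adjusted p = 0.223; 0.23 ± 0.10 SE, adjusted p = 0.133 with the offset), and passed only with the median transcript length (adjusted p = 0.0155). The protease gene Atg4b, which trims ATG8 proteins, averaged 26.3 ± 0.639 CPM in wild-type hearts and 27.6 ± 3.12 CPM in STAT3cKO hearts (log2 fold change 0.07 ± 0.11 SE, edgeR adjusted p = 0.674; 0.18 ± 0.11 SE, adjusted p = 0.275 with the offset). Atg3, the enzyme of the last step, averaged 24.0 ± 1.55 CPM in wild-type hearts and 23.4 ± 2.35 CPM in STAT3cKO hearts (log2 fold change -0.03 ± 0.11 SE, edgeR adjusted p = 0.843; -0.16 ± 0.10 SE, adjusted p = 0.306 with the offset), and Atg7, which activates both ubiquitin-like proteins, averaged 13.8 ± 3.36 CPM in wild-type hearts and 11.7 ± 0.882 CPM in STAT3cKO hearts (log2 fold change -0.23 ± 0.17 SE, edgeR adjusted p = 0.364; -0.13 ± 0.16 SE, adjusted p = 0.614 with the offset).

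None of the 4 genes of the ULK initiation complex passed in either fit (edgeR; 1 had an unadjusted p under 0.05 without the offset, Rb1cc1, and 0 with it). Ulk1, a kinase, stood at 70.9, 70.8 and 82.3 CPM in the wild-type hearts against 65.4, 77.0 and 72.4 CPM in the STAT3cKO hearts, with overlapping groups (log2 fold change -0.06 ± 0.10 SE, edgeR adjusted p = 0.675; 0.09 ± 0.10 SE, adjusted p = 0.556 with the offset). Ulk2, its paralogue, stood at 80.2, 81.1 and 90.4 CPM in the wild-type hearts against 79.9, 79.7 and 76.8 CPM in the STAT3cKO hearts, with the STAT3cKO hearts just below the wild-type hearts (log2 fold change -0.09 ± 0.09 SE, edgeR adjusted p = 0.465; 0.12 ± 0.08 SE, adjusted p = 0.317 with the offset). With the length and GC trend taken off, the order of its groups turned. The lowest STAT3cKO heart, at 82.88 CPM, then lay just above the highest wild-type heart, at 82.83 CPM. Atg13, the regulatory subunit, averaged 45.4 ± 1.37 CPM in wild-type hearts and 47.6 ± 4.51 CPM in STAT3cKO hearts (log2 fold change 0.07 ± 0.10 SE, edgeR adjusted p = 0.618; 0.14 ± 0.09 SE, adjusted p = 0.303 with the offset). Rb1cc1, the scaffold FIP200, with a long transcript of 7607 nt, averaged 76.4 ± 7.41 CPM in wild-type hearts and 66.1 ± 1.19 CPM in STAT3cKO hearts (log2 fold change -0.21 ± 0.09 SE, edgeR adjusted p = 0.118; 0.06 ± 0.08 SE, adjusted p = 0.64 with the offset). Of the 4 log2 fold changes, 3 were below 0 without the offset and 0 with it.

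Among 7 genes of nucleation and membrane supply, 1 fell in both fits, where 6.56% of all genes tested did. Atg9a encodes the lipid scramblase whose vesicles seed the autophagosome (chromosome 1, 75180861 to 75192010). It stood at 89.2, 74.6 and 79.4 CPM in the wild-type hearts against 65.8, 62.8 and 57.3 CPM in the STAT3cKO hearts. Every STAT3cKO heart was below every wild-type heart. The log2 fold change was -0.39 ± 0.10 SE (adjusted p = 0.0115), and -0.30 ± 0.09 SE, adjusted p = 0.0401 with the offset. It stopped just short of the threshold on leaving out replicate 1 of wild type (adjusted p = 0.0503), and with the offset it did not pass on leaving out replicate 1 or 4 of wild type or replicate 3 or 91 of STAT3cKO (adjusted p = 0.156, 0.108, 0.0639 and 0.125). Allowing for length alone it did not pass (adjusted p = 0.0532), nor did it in the offset fit by limma-voom or with the median transcript length.

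Pik3c3, the catalytic lipid kinase of the beclin 1 complex, stood at 22.3, 23.3 and 23.5 CPM in the wild-type hearts against 19.8, 20.4 and 17.8 CPM in the STAT3cKO hearts. Its groups did not overlap, yet it did not pass (log2 fold change -0.25 ± 0.11 SE, edgeR adjusted p = 0.0948; -0.23 ± 0.11 SE, adjusted p = 0.152 with the offset). Becn1, the complex's core, averaged 54.4 ± 0.341 CPM in wild-type hearts and 51.8 ± 5.16 CPM in STAT3cKO hearts (log2 fold change -0.07 ± 0.09 SE, edgeR adjusted p = 0.623; 0.03 ± 0.09 SE, adjusted p = 0.83 with the offset). Atg14 and Uvrag mark the autophagosome-forming and the endosomal form of that complex, and neither passed. Atg14 averaged 12.3 ± 1.86 CPM in wild-type hearts and 13.2 ± 0.677 CPM in STAT3cKO hearts (log2 fold change 0.11 ± 0.14 SE, edgeR adjusted p = 0.602; 0.18 ± 0.13 SE, adjusted p = 0.367 with the offset). Uvrag averaged 20.4 ± 3.50 CPM in wild-type hearts and 16.6 ± 2.40 CPM in STAT3cKO hearts (log2 fold change -0.29 ± 0.15 SE, edgeR adjusted p = 0.163; -0.10 ± 0.14 SE, adjusted p = 0.665 with the offset). Wipi1 and Wipi2 read the lipid that the complex makes. Wipi1 averaged 91.4 ± 7.41 CPM in wild-type hearts and 84.2 ± 0.808 CPM in STAT3cKO hearts (log2 fold change -0.12 ± 0.09 SE, edgeR adjusted p = 0.35; -0.06 ± 0.09 SE, adjusted p = 0.661 with the offset). Wipi2 averaged 41.0 ± 1.57 CPM in wild-type hearts and 41.3 ± 3.01 CPM in STAT3cKO hearts (log2 fold change 0.01 ± 0.10 SE, edgeR adjusted p = 0.947; 0.21 ± 0.09 SE, adjusted p = 0.138 with the offset). None of these 5 genes from Becn1 to Wipi2 passed in either fit.

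The transcription factors that control autophagy genes did not pass in either fit. Tfeb, the regulator of the lysosomal programme, averaged 16.8 ± 1.79 CPM in wild-type hearts and 18 ± 2.87 CPM in STAT3cKO hearts (log2 fold change 0.10 ± 0.14 SE, edgeR adjusted p = 0.631; 0.02 ± 0.12 SE, adjusted p = 0.941 with the offset). Foxo1 stood at 27.4, 29.0 and 26.4 CPM in the wild-type hearts against 25.0, 21.4 and 23.9 CPM in the STAT3cKO hearts. All STAT3cKO hearts were lower than all wild-type hearts, but its sign turned with the offset (log2 fold change -0.24 ± 0.10 SE, edgeR adjusted p = 0.112; 0.12 ± 0.11 SE, adjusted p = 0.501 with the offset), and its transcript is the longest of the set at 8665 nt. Foxo3 averaged 86.6 ± 6.40 CPM in wild-type hearts and 85.2 ± 7.98 CPM in STAT3cKO hearts (log2 fold change -0.02 ± 0.10 SE, edgeR adjusted p = 0.876; 0.27 ± 0.09 SE, adjusted p = 0.0528 with the offset). With the length and GC trend taken off, all its STAT3cKO hearts were above all wild-type hearts. It passed in the offset fit with the stricter filter (edgeR adjusted p = 0.0466).

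Of the 3 fusion genes, 2 fell without the offset (12.6% of all genes tested did) and 0 with it (7.91%). With the offset 0 of them had an unadjusted edgeR p under 0.05. Opa1, the dynamin-like protein that fuses inner membranes and shapes cristae (chromosome 16, 29579281 to 29663127), stood at 234, 216 and 261 CPM in the wild-type hearts against 165, 206 and 152 CPM in the STAT3cKO hearts. STAT3cKO replicate 6 lay nearest to wild type. Its log2 fold change was -0.44 ± 0.12 SE (adjusted p = 0.018), and -0.21 ± 0.11 SE, adjusted p = 0.2 with the offset. The call was lost on leaving out replicate 4 of wild type or replicate 3 or 91 of STAT3cKO (adjusted p = 0.0766, 0.0739 and 0.0591). Its longest transcript has 6230 nt.

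Mfn2, which also links mitochondria to the sarcoplasmic reticulum, stood at 352, 353 and 389.6 CPM in the wild-type hearts against 298, 316 and 262 CPM in the STAT3cKO hearts. The groups did not overlap, also after the length and GC trend was taken off. This was a log2 fold change of -0.32 ± 0.10 SE (adjusted p = 0.0325), and -0.20 ± 0.10 SE, adjusted p = 0.193 with the offset. It did not pass on leaving out replicate 1, 3 or 4 of wild type or replicate 3 or 91 of STAT3cKO (adjusted p = 0.0522, 0.0688, 0.114, 0.0791 and 0.109). Mfn1, its paralogue, stood at 336, 317 and 354 CPM in the wild-type hearts against 336, 303 and 312 CPM in the STAT3cKO hearts, with overlapping groups (log2 fold change -0.08 ± 0.09 SE, edgeR adjusted p = 0.545; 0.04 ± 0.09 SE, adjusted p = 0.802 with the offset).

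Ratios of levels per length were also taken within each heart. Mfn1 to Mfn2 (transcripts of 4562 and 4341 nt) came to 0.907, 0.854 and 0.864 in wild-type hearts and to 1.07, 0.911 and 1.13 in STAT3cKO hearts. All STAT3cKO hearts were higher, replicate 6 by a narrow margin. With the length and GC trend taken off, an alternative added after the values were seen, the ratios were 0.928, 0.863 and 0.841 against 1.09, 0.898 and 1.12, and the groups overlapped, since STAT3cKO replicate 6 lay below wild type replicate 1. Opa1 to Dnm1l, a pair chosen after its values were seen, has transcripts of unequal length (6230 and 3966 nt). That ratio was 1.08, 1.04 and 1.08 in wild type and 0.823, 1.01 and 0.733 in STAT3cKO. With the trend taken off it was 1.01, 0.98 and 0.998 against 0.882, 1.03 and 0.809, and STAT3cKO replicate 6 then lay above all wild-type hearts. Also computed, only without taking the trend off, were Foxo1 to Foxo3 and Ulk1 to Ulk2, whose groups overlapped. Foxo1 to Foxo3 averaged 0.253 ± 0.0311 (SD, n = 3) in wild type and 0.219 ± 0.0342 (SD, n = 3) in STAT3cKO. Ulk1 to Ulk2 averaged 0.98 ± 0.0211 (SD, n = 3) and 1 ± 0.087 (SD, n = 3). No test was made of any ratio, and 3 against 3 cannot give an exact two-sided p below 0.1.

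**Figure D4:**
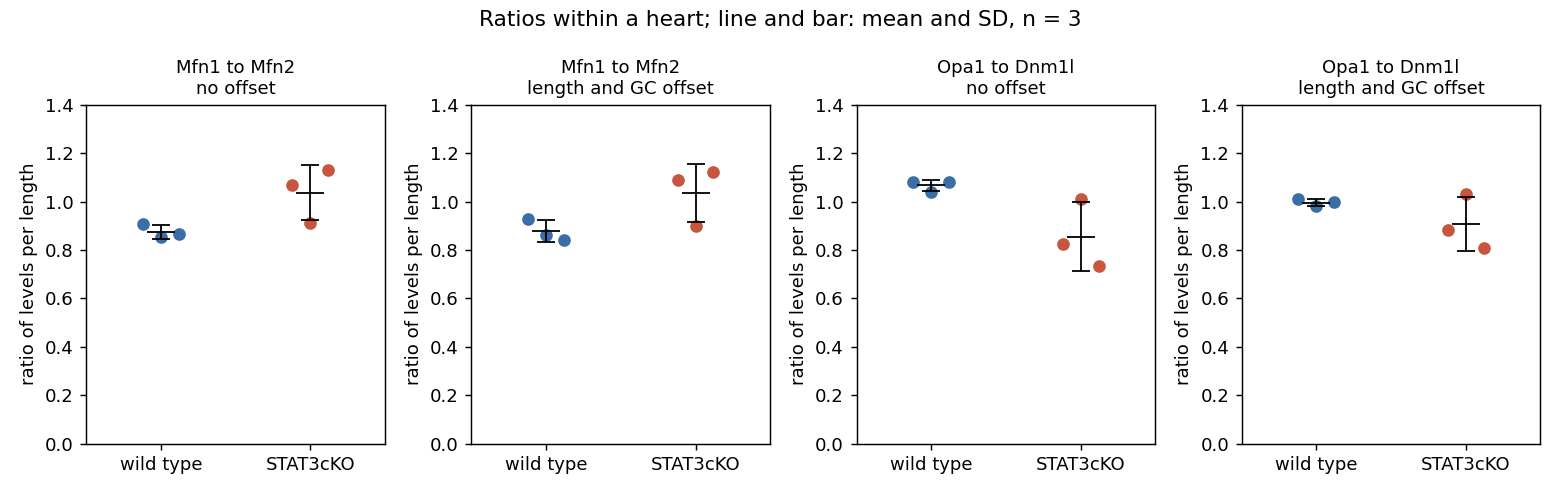
Ratio of levels per transcript length within each heart (points), Mfn1 to Mfn2 in the left pair of panels and Opa1 to Dnm1l in the right pair, each without and with the length and GC offset, with group mean and SD (n = 3 per group) and axes starting at 0. The groups are apart in both panels without the offset and overlap in both with it, where Mfn1 to Mfn2 averages 0.877 in wild type and 1.04 in STAT3cKO and Opa1 to Dnm1l 0.998 and 0.908.

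Of the fission genes Fis1 rose in both fits and Dnm1l did not pass. Fis1, an adaptor in the outer membrane (chromosome 5, 136953275 to 136966234), stood at 60.2, 61.6 and 54.5 CPM in the wild-type hearts against 92.2, 84.8 and 86.4 CPM in the STAT3cKO hearts. Each STAT3cKO heart was higher than each wild-type heart by over 20 CPM. In the fit, log2 fold change was 0.58 ± 0.09 SE (adjusted p = 0.000842). Its transcript is the shortest of the set at 948 nt, and with the offset the value dropped from 0.58 to 0.26 ± 0.08 SE (adjusted p = 0.0428). In that fit the call was lost without any 1 heart (adjusted p from 0.057 to 0.174), and it did not pass by limma-voom or, with length alone, at an adjusted p of 0.0538. Dnm1l, the GTPase DRP1 that constricts mitochondria, stood at 138, 132 and 154 CPM in the wild-type hearts against 128, 130.3 and 132 CPM in the STAT3cKO hearts. Its STAT3cKO hearts lay just below the lowest wild-type heart (log2 fold change -0.12 ± 0.09 SE, edgeR adjusted p = 0.334; -0.07 ± 0.08 SE, adjusted p = 0.588 with the offset).

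Length and fold change were related inside the set as they were over all genes. Spearman's rho between transcript length and log2 fold change was -0.59 over the 37 members without the offset and -0.0503 with it, a description over genes measured in the same libraries. Fis1, Fundc1 and Gabarapl1, on the short side, had smaller log2 fold changes with the offset (0.26, 0.28 and 0.17) than without it (0.58, 0.43 and 0.28). Mfn2 and Opa1, on the long side, moved towards 0, from -0.32 and -0.44 to -0.20 and -0.21. Sqstm1 and Optn, at 2673 and 2614 nt, were little changed by the offset.

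**Figure D5:**
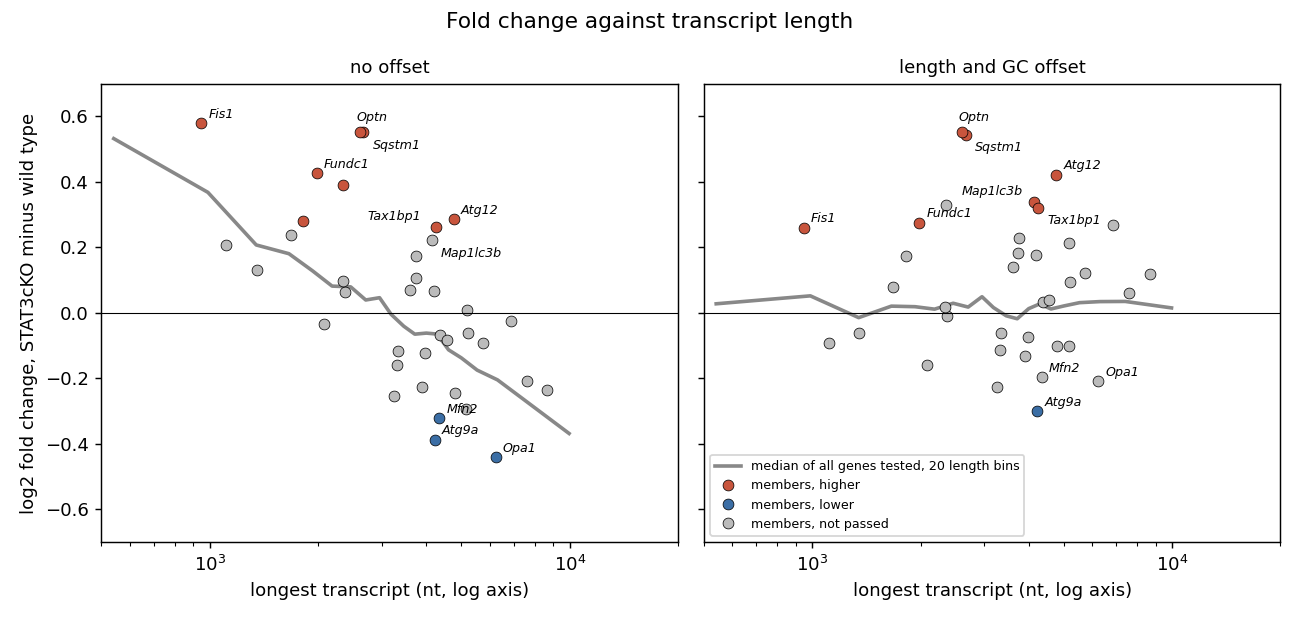
Log2 fold change (STAT3cKO minus wild type) against the longest transcript in nt on a log axis, without offset on the left and with the length and GC offset on the right. Points are the 37 genes coloured by call, and the grey line is the median of all genes tested in 20 length bins. The line falls from left to right without the offset and is near 0 with it, and Sqstm1 and Optn stay near 0.55 in both panels.

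Other genes of the pathway were counted from 5 lists of 100 genes in the table, of which 97 were tested. Without the offset 15 rose (15.5%, against 13.2% of all genes tested) and 11 fell (11.3%, against 12.6%), shares close to those of all genes. With it 13 rose (13.4%, against 10.9%) and 2 fell (2.06%, against 7.91%), and 10 rose (10.3%, against 8.28%) and 2 fell (2.06%, against 6.56%) in both. The counts by list below are small and are read against the same shares. The median log2 fold change was -0.02 without the offset and 0.04 with it. In the list of selective receptors and mitophagy (23 tested) 5 rose and 3 fell, and with the offset 4 rose and 0 fell. Bnip3, a hypoxia-inducible mitophagy receptor, stood at 118, 109 and 108 CPM in the wild-type hearts against 162, 139 and 189.5 CPM in the STAT3cKO hearts (log2 fold change 0.55 ± 0.11 SE, edgeR adjusted p = 0.00376; 0.39 ± 0.10 SE, adjusted p = 0.0187 with the offset). Its offset call was lost on leaving out replicate 3 or 4 of wild type or replicate 3 or 91 of STAT3cKO (adjusted p = 0.0721, 0.0668, 0.0649 and 0.054). Fkbp8, an outer membrane receptor for LC3A, rose (log2 fold change 0.43 ± 0.10 SE, edgeR adjusted p = 0.00747; 0.27 ± 0.08 SE, adjusted p = 0.0331 with the offset), though its offset call was lost on leaving out replicate 1, 3 or 4 of wild type or replicate 3 or 91 of STAT3cKO (adjusted p = 0.123, 0.127, 0.0763, 0.073 and 0.0894). Sec62, a receptor for endoplasmic reticulum, rose as well (log2 fold change 0.30 ± 0.08 SE, edgeR adjusted p = 0.0175; 0.36 ± 0.08 SE, adjusted p = 0.00642 with the offset), but in the fit with no offset it did not pass on leaving out replicate 1 or 3 of wild type (adjusted p = 0.0606 and 0.0615).

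Among fission, fusion and transport genes (20 tested) 2 rose and 0 fell in either fit. Chchd3, a cristae organiser, had log2 fold change 0.47 ± 0.10 SE, edgeR adjusted p = 0.00415 and 0.30 ± 0.09 SE, adjusted p = 0.0389 with the offset. The offset call was lost on leaving out replicate 1, 3 or 4 of wild type or replicate 3 or 6 of STAT3cKO (adjusted p = 0.0767, 0.141, 0.108, 0.136 and 0.0776). Mff, which recruits DRP1, had log2 fold change 0.26 ± 0.08 SE, edgeR adjusted p = 0.0388, and the call was lost without any 1 heart (adjusted p from 0.0504 to 0.118). With the offset it had 0.26 ± 0.08 SE, adjusted p = 0.0478, and did not pass on leaving out replicate 1, 3 or 4 of wild type or replicate 3 or 6 of STAT3cKO (adjusted p = 0.0738, 0.132, 0.168, 0.104 and 0.109).

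Of 20 tested genes of initiation, nucleation and elongation 3 rose and 1 fell, and with the offset 2 rose and 0 fell. Atg16l2, a paralogue of Atg16l1, stood at 9.88, 10.5 and 8.50 CPM in the wild-type hearts against 14.9, 12.9 and 15.6 CPM in the STAT3cKO hearts. The log2 fold change was 0.59 ± 0.14 SE (adjusted p = 0.00849), and 0.87 ± 0.14 SE, adjusted p = 0.00173 with the offset, and it passed in each fit that left out a heart.

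Genes of autophagosome-lysosome fusion (14 tested) had 2 higher and 5 lower without the offset and 1 each way with it. Vps16 and Vps18 belong to the same tethering complexes. Vps16 rose (log2 fold change 0.50 ± 0.10 SE, edgeR adjusted p = 0.00422; 0.55 ± 0.10 SE, adjusted p = 0.00331 with the offset) and Vps18 fell (log2 fold change -0.53 ± 0.14 SE, edgeR adjusted p = 0.0176; -0.47 ± 0.13 SE, adjusted p = 0.027 with the offset). The Vps18 call was lost on leaving out replicate 1 or 3 of wild type (adjusted p = 0.0519 and 0.0887), and with the offset it did not pass on leaving out replicate 1 or 3 of wild type or replicate 3, 6 or 91 of STAT3cKO (adjusted p = 0.072, 0.121, 0.061, 0.0502 and 0.0541).

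Among 20 regulators 3 rose and 2 fell, and 4 rose and 1 fell with the offset. Sesn3, a sestrin that restrains mTORC1 and is a FOXO target, stood at 8.29, 8.71 and 6.75 CPM in the wild-type hearts against 3.21, 2.99 and 2.46 CPM in the STAT3cKO hearts. Its level in STAT3cKO hearts was under 4 CPM in each. Its log2 fold change was -1.46 ± 0.20 SE (adjusted p = 0.000536), and -1.11 ± 0.20 SE, adjusted p = 0.00312 with the offset, and the call held in each alternative and each fit that left out a heart. Rheb, the GTPase that activates mTORC1, had log2 fold change 0.34 ± 0.08 SE, edgeR adjusted p = 0.0119, and the call was lost on leaving out replicate 3 or 4 of wild type (adjusted p = 0.0519 and 0.052). Mitf, a relative of TFEB, had log2 fold change 0.37 ± 0.11 SE, edgeR adjusted p = 0.0281, and the call was lost on leaving out replicate 1 or 3 of wild type or replicate 6 or 91 of STAT3cKO (adjusted p = 0.115, 0.105, 0.068 and 0.0623). With the offset both held in each fit that left out a heart (0.42 ± 0.08 SE, adjusted p = 0.00546 for Rheb; 0.52 ± 0.10 SE, adjusted p = 0.00435 for Mitf). With library size alone Fkbp8, Sec62, Mff, Rheb and Mitf did not pass in the fit without offset, and with the median transcript length Bnip3, Sec62, Mff and Vps18 did not pass in the offset fit.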

How the data were processed

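Libraries were made from total RNA with an integrity number over 8, per the labels' protocols, and aligned with HISAT2 to GRCm38, per the submitters' processing notes. The values the authors deposited are whole-number read counts for each gene. Neither the counter nor its gene models, strand option or handling of reads with several matches is stated in the labels. Reads of the 13 members that overlap another annotated gene (Map1lc3b, Gabarapl1, Becn1, Atg5, Atg7, Atg12, Atg16l1, Wipi1, Pink1, Rb1cc1, Uvrag, Foxo3 and Mfn1) could therefore include that gene's.

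Counts were filtered with filterByExpr (minimum count 10), scaled by TMM and tested with edgeR 4.0.16 (robust quasi-likelihood F test, genotype as the only term, R 4.3.3). Standard errors were taken from each log2 fold change and its F value. For the offset, each heart's deviation of log2 CPM from the gene mean was fitted by splines with 5 degrees of freedom on log2 length and GC content of the longest GENCODE M21 transcript (GRCm38). Genes without a length received the median deviation of such genes. The steps were run on simulated data with either no or a linear length trend and the same dispersion for all genes. Those data are simpler than these, so that run does not check the calls on the members. The alternatives were other scalings (DESeq2 size factors, upper quartile, library size alone), no filter and a stricter filter (1 CPM or more in 3 libraries, mean count 50 or more), the Wald test of DESeq2 1.42.0, limma-voom (limma 3.58.1), edgeR's non-robust fit, exclusion of haemoglobin and mitochondrial genes, length alone, median transcript length and each heart left out in turn.

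Per-heart values are given for members that passed in either fit and for Pink1, Map1lc3b, Sqstm1, Mfn1, Mfn2, Opa1 and Dnm1l. Such values for Ulk1, Ulk2, Pik3c3, Nbr1, Vcp and Foxo1 were added after they were seen. Of the other pathway genes, up to 3 per list with the smallest adjusted p among those called in both fits are named. Members, lists and these rules were chosen with earlier results of these data known. Promoter sequences are RefSeq's on GRCm38.p6, and 31 of 37 members matched by symbol.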

Additional observations from a re-analysis of the deposited data

How the results depend on the processing

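No paired analysis was possible because the titles of the 2 groups share a single number. No member or named gene that passed in either fit changed sign under any alternative run on that fit. Leaving out 1 heart at a time gave 4 to 8 members higher and 1 to 3 lower without the offset, and 3 to 7 higher and 0 to 1 lower with it. Over all genes these fits gave 1237 to 1887 higher and 1198 to 1999 lower, against 1918 and 1820 with all 6 hearts. With the offset they gave 993 to 1622 higher and 657 to 1213 lower, against 1585 and 1145. A call lost on leaving out a heart is to be read beside these counts. In the fits without the offset that left out a heart, the other pathway genes gave 6 to 13 higher and 5 to 11 lower. By list, in the order higher then lower, they gave 1 to 3 and 1 (initiation, nucleation and elongation), 2 to 5 and 1 to 3 (selective receptors and mitophagy), 1 and 0 (fission, fusion and transport), 2 and 1 to 5 (autophagosome-lysosome fusion), and 0 to 2 and 2 to 3 (regulators).

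With library size alone the midpoint over all genes shifted to -0.11 (log2), and 4 members were higher and 7 lower. Over all 14484 genes tested this scaling gave 1109 higher and 2714 lower, against 1918 and 1820 with TMM. The shift towards lower calls was thus not particular to the members. Other pathway genes were then 5 higher and 18 lower, with 1 higher in initiation, 1 higher and 5 lower in selective receptors, 1 higher and 2 lower in fission and fusion, and 0 higher and 4 lower among regulators. With no low-count filter 5 members and 1 fission and fusion gene were higher. With the length and GC offset 1 member and 2 other genes were lower. By list it left 0 lower in initiation, 0 in selective receptors, 1 in lysosome fusion (with 1 higher) and 1 among regulators. Length alone left 0 members lower, and 2 other genes lower, with 1 higher and 0 lower in initiation, 0 lower in selective receptors, 1 in lysosome fusion and 1 among regulators. In the offset fit, limma-voom and length alone gave 0 members lower and the median transcript length gave 2. The median transcript length also turned Rb1cc1 from 0.06 to -0.26 (adjusted p = 0.0477). The cause was not tested. With 3 hearts a group, the smallest log2 fold change that passed among the members was 0.26 without the offset (Tax1bp1) and 0.26 with it (Fis1).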
